A study of Homo sapiens with 6 samples.

Results

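The BCL2 family of apoptosis regulators was examined in MDA-MB-231, a human cell line from a triple-negative breast cancer, after overexpression of the circular RNA *circAAGAB*. The family list held 10 genes chosen by symbol: the BH3-only genes *PMAIP1*, *BBC3*, *BCL2L11*, *BID* and *BAD*, the effectors *BAX* and *BAK1*, and the anti-apoptotic genes *BCL2*, *BCL2L1* and *MCL1*. Of these, 9 carried a named probe set, out of 17687 named genes on the array, each with 1 probe set, and *BBC3* was not analysed here. RNA was taken 24 h after transfection from 3 samples that received the plasmid expressing *circAAGAB* and from 3 that received the empty vector, all of the same cell line in the same serum-containing medium. The transfection was transient, and no source used here gives the share of cells that took up the plasmid. The study's general statement on statistics speaks of independent experiments without tying this to the arrays. If the 3 arrays of a group are not separate cultures, the p-values measure only a technical spread. The values are log2 signals of Clariom S arrays after robust multichip averaging, and each difference is *circAAGAB* overexpression minus empty vector on that log2 scale.

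BCL2 family proteins decide whether the outer membrane of the mitochondrion is opened, which lets cytochrome c into the cytosol and starts the caspase cascade. The effectors form the openings, the anti-apoptotic members bind and restrain the effectors and the BH3-only proteins, and the BH3-only proteins carry stress signals that release or activate the effectors. Each BH3-only protein binds its own set of anti-apoptotic partners. NOXA, the product of *PMAIP1*, binds MCL1 in particular, whereas BAD binds BCL2 and BCL-XL, the main product of *BCL2L1*.

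*AAGAB*, the host gene whose exons the plasmid carries, checked the labels. It was at 11.28 ± 0.41 on the *circAAGAB* arrays and at 7.67 ± 0.09 on the empty vector arrays (SD, n = 3 each). This was the single probe set of 21448 with an adjusted p under 0.05 in limma (0.00466% of those tested, adjusted p = 0.00319). No detection calls came with the values, so background was gauged by 348 olfactory receptor genes, whose mean signals had a 95th percentile of 4.65. Each of the 9 measured family members was above it. Of the cell type markers measured, 8 of 8 mesenchymal ones were above the gauge, as were 5 of 9 luminal ones, 4 of 9 of blood cells and 2 of 6 of fibroblasts. The luminal markers above it were the keratin genes *KRT8*, *KRT18* and *KRT19*, *EPCAM* and *GATA3*, whereas the hormone receptor genes *ESR1* and *PGR* and the E-cadherin gene *CDH1* were below it. Of the blood cell markers *CD68*, *HBA1*, *CD14* and *LYZ* were above it and the pan-leukocyte marker *PTPRC* was below it. The mesenchymal marker *AXL*, a receptor tyrosine kinase, was the single one of these 32 markers with an unadjusted p under 0.05, and its arrays did not overlap, at a difference of -0.33 (adjusted p = 1.00 from limma). Of all probe sets, 0.988% were lower at that threshold. The mesenchymal marker *MSN* was also lower without overlap, at -0.24, as were 4.04% of all probe sets. The part of *AXL* in the family's values was not tested. The smallest unadjusted p in the other marker lists were those of *PGR* and *GATA3* (differences of 0.28 and 0.21), *PTPRC* and *HBB* (0.46 and 0.13) and *DCN* and *PDGFRB* (-0.39 and -0.39). The arrays of replicate number 1 stood apart from the other 4 arrays, and arrays of the same number deviated together, so differences within each replicate number are given below. Arrays of numbers 2 and 3 also deviated together across these numbers, so their pairing rests on the labels.

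The largest difference in the family was that of the BH3-only gene *PMAIP1*, which was 1.54-fold higher with *circAAGAB*. The anti-apoptotic genes *BCL2L1* and *MCL1* had differences of -0.27 and -0.21. The other 6 members lay between -0.12 and 0.20. In limma, two-sided and adjusted over all probe sets, 0 of the 9 members passed an adjusted p under 0.05 (1.00 for each). At an unadjusted p under 0.05, 1 member was on the higher side, where 1.19% of all probe sets were, and 0 were on the lower side, where 0.988% were. All 3 *circAAGAB* arrays were above all 3 empty vector arrays for 1 member, *PMAIP1* (3.87% of all probe sets), and below them for 1, *BCL2L1* (4.04%). The median difference was -0.02 over the 9 members and -0.0017 over all probe sets. These are measurements of bulk RNA, in which fewer cells with a transcript and less of it per cell cannot be told apart.

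**Figure D1:**
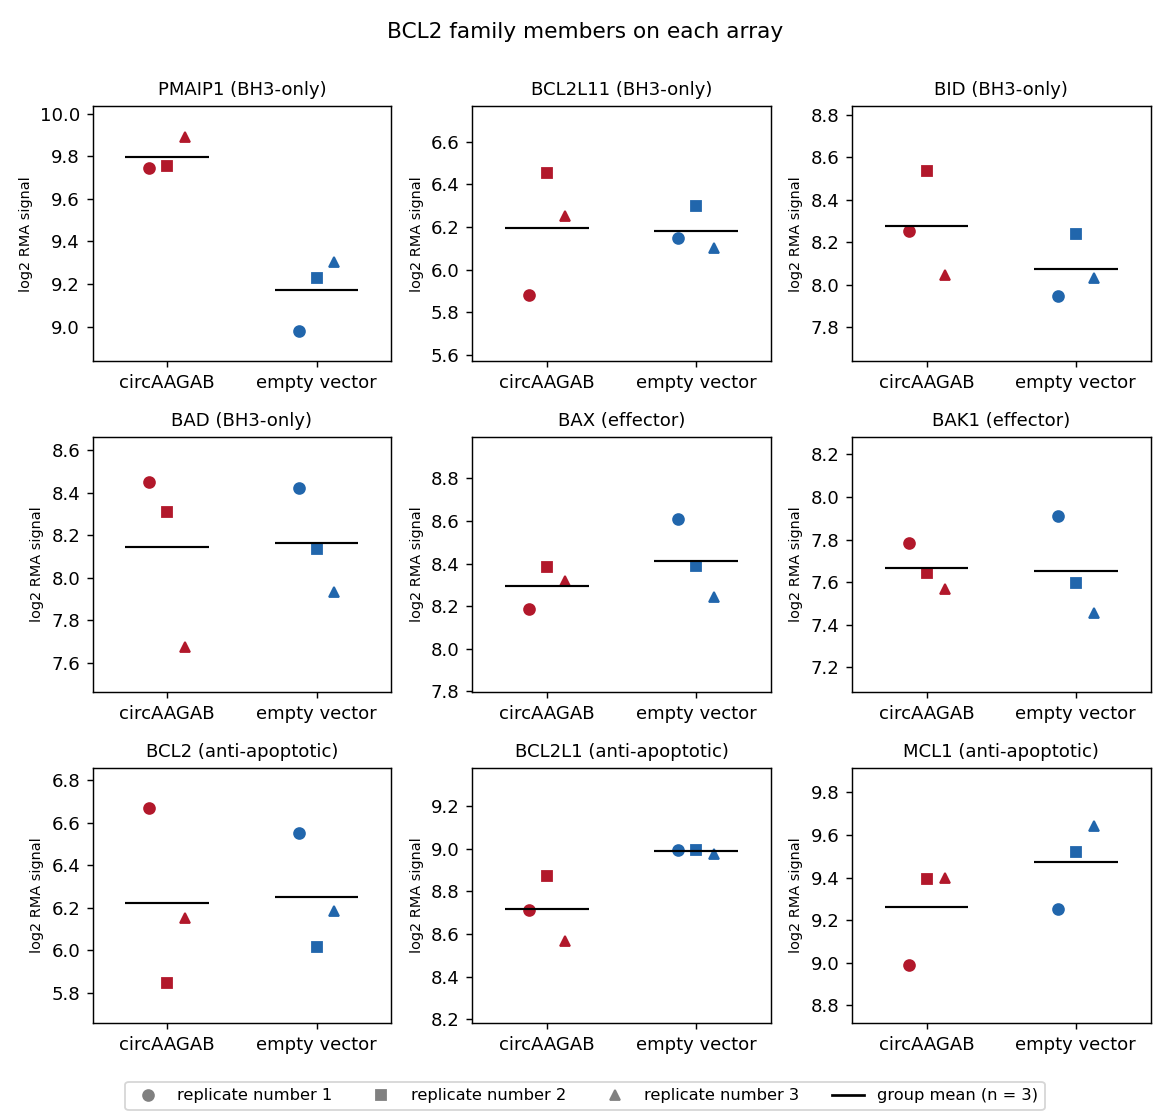
Log2 RMA signal of the 9 measured BCL2 family members on each of the 6 arrays, with *circAAGAB* overexpression left and empty vector right in each panel. Marker shapes give the replicate number, bars the group means, and each panel spans the same 1.2 log2 units. The groups are apart for *PMAIP1* and *BCL2L1* and overlap in the other 7 panels.

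Promoter sequences of the 2 members whose groups did not overlap are shown for the context of their transcription starts. They come from RefSeq on GRCh38.p14, each with 250 bases before and 50 bases after the annotated start, 5′ to 3′ on the gene's strand. Of the 9 measured members, 8 had such a window, and *MCL1* had none in the table used. Motifs were searched on both strands: TGACG, the core of the sites of ATF and CREB factors, its full palindrome TGACGTCA (which contains TGACG), GCGNGGGCG, the core of EGR sites, and GGGCGG, the GC box of SP1, which can overlap GCGNGGGCG. Capitals mark TGACG, GCGNGGGCG and GGGCGG or their reverse complements (a reverse-strand TGACG reads CGTCA).
*PMAIP1*, chr18:59899746-59900045, plus strand: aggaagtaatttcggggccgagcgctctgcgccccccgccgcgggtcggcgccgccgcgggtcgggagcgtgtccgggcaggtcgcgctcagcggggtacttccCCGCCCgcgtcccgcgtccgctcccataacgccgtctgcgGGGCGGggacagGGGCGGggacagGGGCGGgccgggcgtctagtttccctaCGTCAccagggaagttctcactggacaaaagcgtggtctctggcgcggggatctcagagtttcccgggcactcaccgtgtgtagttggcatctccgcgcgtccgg
*BCL2L1*, the more upstream of 2 annotated starts, chr20:31723914-31724213, minus strand: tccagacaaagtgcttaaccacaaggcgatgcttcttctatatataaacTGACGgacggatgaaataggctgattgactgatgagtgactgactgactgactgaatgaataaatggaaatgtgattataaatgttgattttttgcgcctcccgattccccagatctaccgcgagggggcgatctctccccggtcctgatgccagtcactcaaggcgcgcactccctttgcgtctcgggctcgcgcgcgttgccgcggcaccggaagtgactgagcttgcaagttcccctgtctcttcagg

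In the *PMAIP1* window a reverse-strand TGACG spans bases -55 to -51 from the start, and 4 GC boxes lie between -146 and -77. In the *BCL2L1* window shown a TGACG spans -201 to -197, with no GC box. The window of its other annotated start holds no TGACG and a reverse-strand GC box at -5 to 1. Which start these cells use was not measured. TGACG was in the windows of 5 of the 8 members (*BAD*, *BAX*, *BCL2*, *BCL2L1* and *PMAIP1*). The 8 members have 14 windows in all, since some have several starts. Some of these windows overlap, so a site can be counted more than once. Both *BAD* windows hold the same TGACG, and windows of *BID* share GC boxes. By window it was in 6 of these 14, and in 24.6% of 35116 promoter windows of this length. The palindrome TGACGTCA was in 0 of the 14 and in 1.85% of all windows. GCGNGGGCG was in 2 of the 14, of *BAX* and *BCL2L11*, and in 9.43% of all windows. GGGCGG was in 11 of the 14, of 7 members (not *BCL2*), and in 45.0% of all windows. These matches describe letters in a window and not binding.

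Of the BH3-only genes, *PMAIP1* was at 9.74, 9.75 and 9.89 on the *circAAGAB* arrays of replicates 1, 2 and 3, and at 8.98, 9.23 and 9.30 on the empty vector arrays. Its lowest *circAAGAB* array was thus above its highest empty vector array. The difference was 0.63 (standard error 0.15, 95% confidence interval 0.28 to 0.97, adjusted p = 1.00 from limma over all probe sets), and the unadjusted p was 0.00322. The replicate numbers gave 0.76, 0.53 and 0.59, so *PMAIP1* was higher in 3 of 3 pairs. Without both arrays of replicate number 1 the difference was 0.56 (adjusted p = 0.621 from limma). The group accounted for 89.1% of the variance of *PMAIP1* over the 6 arrays and the replicate number for 8.57%, where the medians over all probe sets were 8.31% and 60.4%. *PMAIP1* stands among genes coloured in a network that the study drew from these same arrays, so its difference is no independent evidence.

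*BID* encodes the BH3-only protein that caspase 8 cleaves, linking death receptors to mitochondria. It was at 8.25, 8.53 and 8.05 with *circAAGAB* and at 7.95, 8.24 and 8.03 with the empty vector. The groups overlapped, although the *circAAGAB* array was the higher one within each number, by 0.31, 0.29 and 0.01. The difference over all arrays was 0.20 (standard error 0.18, 95% confidence interval -0.20 to 0.61).

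*BCL2L11* encodes BIM, a BH3-only protein that binds each of the major anti-apoptotic members. Its signals were 5.88, 6.45 and 6.25 with *circAAGAB*, against 6.15, 6.30 and 6.10 with the empty vector. Replicate number 1 went one way, at -0.27, and numbers 2 and 3 the other, at 0.16 and 0.15. The overall difference was 0.01 (95% confidence interval -0.40 to 0.43).

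*BAD*, whose product is held inactive by phosphorylation and 14-3-3 proteins, was at 8.45, 8.31 and 7.67 with *circAAGAB* and at 8.42, 8.14 and 7.93 with the empty vector. In both groups the array of replicate number 1 was the highest and that of number 3 the lowest. The difference between the groups was -0.02 (95% confidence interval -0.56 to 0.52), and the replicate number held 89.5% of the variance.

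**Figure D2:**
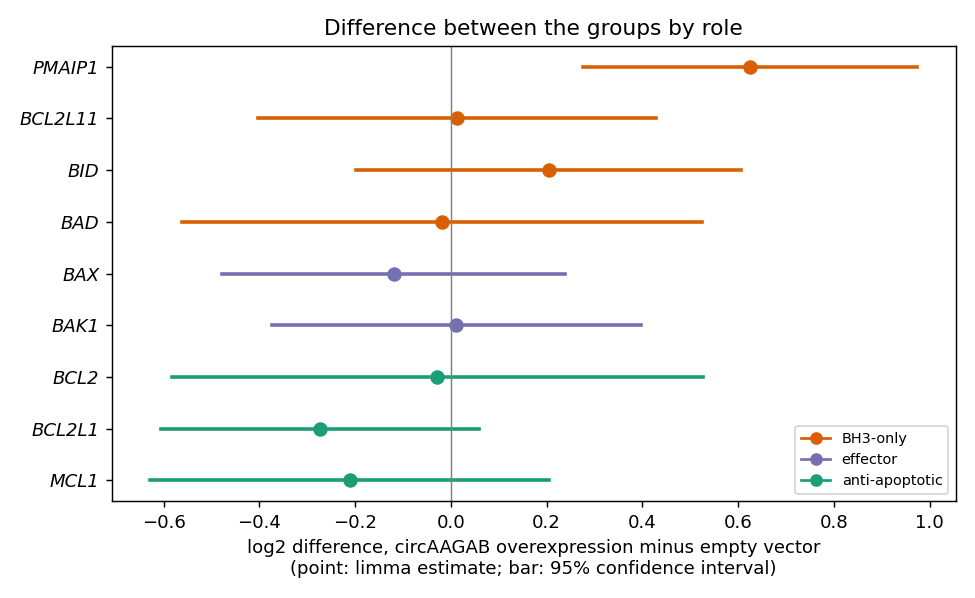
Log2 difference of each measured member, *circAAGAB* overexpression minus empty vector, with its 95% confidence interval from limma (3 arrays a group), coloured by role. The interval of *PMAIP1*, 0.28 to 0.97, lies above 0, and those of the other 8 members include 0.

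The effectors showed no shared direction. *BAX* was at 8.18, 8.38 and 8.32 on the *circAAGAB* arrays and at 8.61, 8.39 and 8.24 on the empty vector arrays. The gap came from replicate number 1, whose difference was -0.42, against -0.0047 and 0.07 for numbers 2 and 3. Without both arrays of number 1 the difference of -0.12 over all arrays became 0.03. *BAK1* was at 7.79, 7.64 and 7.57 with *circAAGAB* and at 7.91, 7.60 and 7.45 with the empty vector, a difference of 0.01. The 95% confidence intervals, -0.48 to 0.24 for *BAX* and -0.37 to 0.40 for *BAK1*, bound what 3 arrays a group could show.

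Each of the 3 anti-apoptotic members had a mean below that of the empty vector arrays, and so had 50.4% of all probe sets. For *BCL2* the difference was only -0.03 and changed sign in 4 of 14 alternative fits. *BCL2L1* was at 8.71, 8.87 and 8.57 with *circAAGAB*, and at 8.995, 8.997 and 8.978 with the empty vector. Its empty vector arrays were within 0.02 of each other, and each *circAAGAB* array was below them. The difference was -0.27 (standard error 0.14, 95% confidence interval -0.61 to 0.06, adjusted p = 1.00 from limma), and the replicate numbers gave -0.28, -0.13 and -0.41. Its unadjusted p was under 0.05 with a mean-variance trend in limma, at 0.0471, and so it was with the methods' test, but the adjusted p was 1.00 in both. The probe set does not tell the long anti-apoptotic transcript, BCL-XL, from the short pro-apoptotic one, BCL-XS.

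*MCL1*, whose short-lived product is the main partner of NOXA, was at 8.99, 9.40 and 9.40 with *circAAGAB* and at 9.25, 9.52 and 9.64 with the empty vector. The groups overlapped because replicate number 1 was low in both, but *MCL1* was lower with *circAAGAB* in 3 of 3 pairs, with differences of -0.26, -0.13 and -0.25. The overall difference was -0.21 (standard error 0.18, 95% confidence interval -0.63 to 0.21, adjusted p = 1.00 from limma). With the replicate number as a block the standard error was 0.11 and the unadjusted p 0.104. The replicate number held 71.8% of the variance of *MCL1* and the group 26.1%. Within the same pairs *PMAIP1* was higher by 0.76, 0.53 and 0.59, and the difference between the differences of these 2 members was not tested.

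*BCL2* itself was at 6.67, 5.85 and 6.15 with *circAAGAB* and at 6.55, 6.02 and 6.19 with the empty vector. Both arrays of replicate number 1 were above the other 4, and the number accounted for 95.7% of the variance against 0.24% for the group. The difference between the groups was -0.03 (95% confidence interval -0.58 to 0.53). The replicate number held more of the variance than the group in 6 of the 9 members, the exceptions being *PMAIP1*, *BCL2L1* and *BAX*. Over all probe sets the median shares were 60.4% for the replicate number and 8.31% for the group, so this is not particular to the family.

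**Figure D3:**
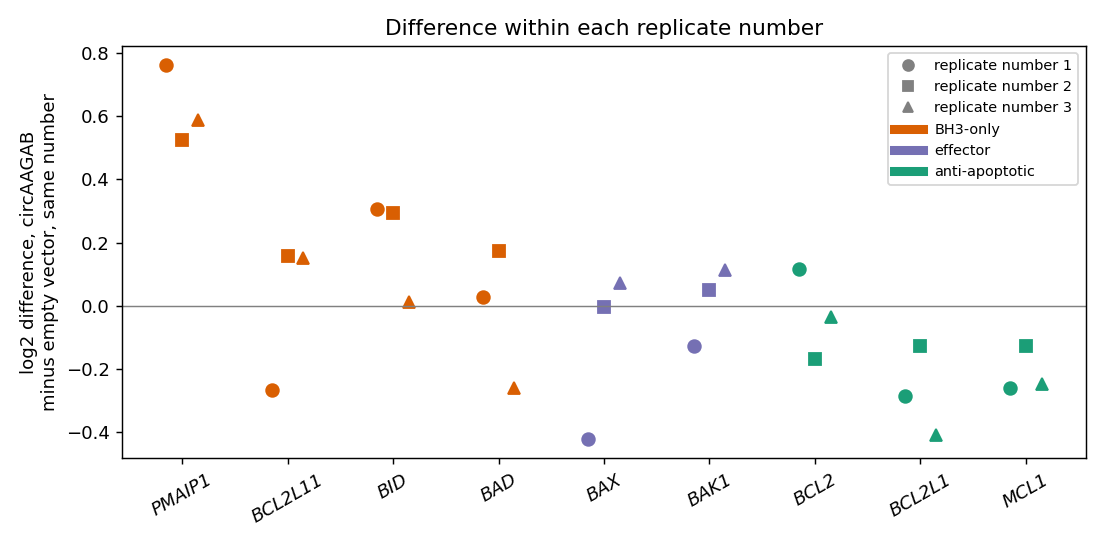
Log2 difference within each replicate number, *circAAGAB* minus empty vector array of the same number, for the 9 measured members. The 3 points are above 0 for *PMAIP1* and *BID*, below 0 for *BCL2L1* and *MCL1*, and on both sides of 0 for the other 5.

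Genes around the family were read from lists of its other relatives, partners and regulators. Of 73 listed genes 68 were measured, 32 with a positive and 36 with a negative difference, and the median was -0.003. At an unadjusted p under 0.05 there were 3 on the higher side, *EGR1*, *ATF3* and *JUN*, where 1.19% of all probe sets were. On the lower side there were 0, where 0.988% of all probe sets were, and none passed after adjustment. *EGR1* and *ATF3* are hub genes that the study picked on these same arrays. The lists were chosen with earlier results of these data known, so the 3 are no independent evidence about the family. With the replicate number as a block, 4 were higher and 2 lower at an unadjusted p under 0.05, where 3.78% and 3.02% of all probe sets were. None of the 68 passed an adjusted p under 0.05 in that fit either. Without overlap of the arrays, 5 of the 68 were higher and 4 lower, where 3.87% and 4.04% of all probe sets were.

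The other BH3-only genes *BMF*, *BIK* and *HRK* had differences of 0.17, 0.06 and 0.05, and the third effector gene, *BOK*, one of -0.0093. Among the other anti-apoptotic genes, *BCL2A1*, whose product BFL1 also binds NOXA, and *BCL2L10* were below the gauge of background, with differences of -0.08 and 0.29, and *BCL2L2*, which encodes BCL-w, had one of -0.04. Of the 9 more distant relatives, 7 had positive and 2 negative differences. *BECN1*, the BH3-containing autophagy protein beclin 1, was the only one of them without overlap, at -0.19, and *BCL2L14* was at 0.14.

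Genes acting on the members' proteins were also measured. *MARCHF5*, a ubiquitin ligase of the mitochondrial outer membrane that takes part in the turnover of MCL1 and NOXA, was at 9.14 ± 0.14 with *circAAGAB* and at 8.81 ± 0.11 with the empty vector (SD, n = 3 each). All 3 *circAAGAB* arrays were above the empty vector arrays, and the difference was 0.33 (adjusted p = 1.00 from limma). With the block its unadjusted p was 0.0225 and its adjusted p was 0.724. *USP13*, a deubiquitinase that stabilises MCL1, was next in that list, with a difference of -0.24. Replicate number 1 gave -0.73 and numbers 2 and 3 gave 0.06 and -0.04, and without both arrays of number 1 the difference was 0.0089. *RPS6KA1*, a kinase that phosphorylates BAD, was at 6.39 ± 0.14 with *circAAGAB* and at 6.86 ± 0.38 with the empty vector (SD, n = 3 each), a difference of -0.48 (adjusted p = 1.00 from limma). With the block its unadjusted p was 0.0321 and its adjusted p was 0.724. This difference was -0.25 without both arrays of replicate number 1. *PRKACA*, another BAD kinase, was at -0.21, and at -0.11 without those arrays. Both it and *RPS6KA1* were lower without overlap over all 6 arrays, as were 4.04% of all probe sets. The dynein light chain genes *DYNLL1* and *DYNLL2*, whose products hold BIM and BMF, were at 0.10 and 0.0069.

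Downstream of the family, *CYCS*, which encodes cytochrome c, was at 0.15, and *AIFM1*, the apoptosis-inducing factor, at -0.26 without overlap (4.04% of all probe sets were lower in that way). The difference of *AIFM1* was -0.57, -0.19 and -0.02 in the replicate numbers and -0.10 without both arrays of number 1. The other 7 proteins of the outer membrane or the intermembrane space in that list lay between these values. All 6 measured caspase and apoptosome genes had negative differences, with a median of -0.14, where 50.4% of all probe sets were negative, and 0 of them had an unadjusted p under 0.05. Without both arrays of replicate number 1, 3 of the 6 were negative and *CASP6*, *CASP8* and *CASP9* were at 0.04, 0.09 and 0.06. *CASP2*, a caspase able to cleave BID, was the lowest, at 7.90 ± 0.33 with *circAAGAB* and 8.34 ± 0.16 with the empty vector (SD, n = 3 each). The difference was -0.44 (adjusted p = 1.00 from limma, and with the block an unadjusted 0.0135 and an adjusted 0.724), and *CASP6* was at -0.15.

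Of 13 measured transcription factors known to act on family genes, 3 were higher at an unadjusted p under 0.05, where 1.19% of all probe sets were. *EGR1*, *ATF3* and *JUN* had differences of 1.24, 0.88 and 0.49, each without overlap of the arrays, with adjusted p of 0.478, 1.00 and 1.00 from limma. The first 2 of these are hub genes that the study picked on these arrays, so their array values are not independent evidence. The study also reported both as higher with *circAAGAB* by quantitative RT-PCR and by western blotting. Those measurements were not examined here. *DDIT3*, which encodes CHOP, and *ATF4* were at 0.24 and 0.10. *FOXO3*, which acts on *BCL2L11*, was at -0.0090.

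**Figure D4:**
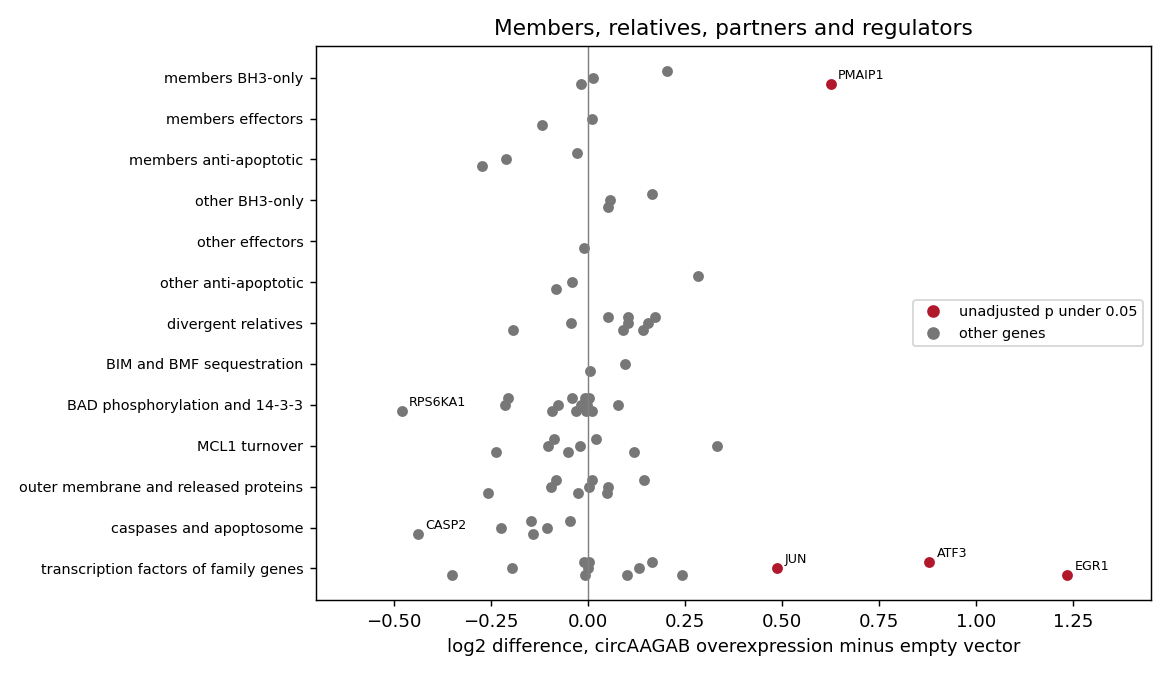
Log2 differences, *circAAGAB* overexpression minus empty vector, of the measured members by role and of 68 other genes in 10 lists, 1 point a gene, spread vertically only to keep points apart. Red points, *PMAIP1*, *EGR1*, *ATF3* and *JUN*, had an unadjusted p under 0.05 in limma, and genes beyond 0.4 from 0 are named.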

How the data were processed

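RNA of 6 samples of MDA-MB-231 cells was hybridised to Clariom S arrays. The authors normalized the scans by robust multichip averaging (RMA, which the submitters' processing notes name too). The log2 values they deposited, 1 per probe set and array, entered the tests as they were. For the software version and annotation build, the sources used here say nothing. Since RMA equalises distributions, a shift of the whole transcriptome between the groups would be lost, and an array yields no depth, so the number of arrays limits the precision. Of 21448 probe sets, 17709 had 1 gene symbol in the array's annotation table, 0 several and 3739 none. The gene of several probe sets is represented by the one of highest mean.

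The comparison used limma (version 3.58.1, R version 4.3.3; lmFit, eBayes, no covariate, two-sided, Benjamini-Hochberg over all probe sets, no filter), after the script was tested on simulated data. Deviations from the group means correlated at 0.603, 0.189 and 0.549 between the arrays of numbers 1, 2 and 3. By the rule used, over 0.1 in every pair, the labels' replicate numbers were taken as pairs, and a fit with the number as a block is an alternative. Across numbers, *circAAGAB* array 2 correlated with empty vector array 3 at 0.286, and *circAAGAB* array 3 with empty vector array 2 at 0.247. The values thus set number 1 apart, whereas the pairing within numbers 2 and 3 rests on the labels. Others were quantile normalization, median centring, a filter on dim probe sets, a mean-variance trend, the methods' unpaired test per probe set, named probe sets only, and arrays left out. The text names all members, and of each other list the genes with an unadjusted p under 0.05, or else the 2 of smallest p, besides a few added as context after their values were seen. Members and lists were chosen with earlier results of these data known. The promoter motifs were picked after it was known which genes differed.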

Additional observations from a re-analysis of the deposited data

How the results depend on the processing

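Across 14 alternatives, *PMAIP1* stayed between 0.53 and 0.69 higher with *circAAGAB*, and it was the only member on the higher side at an unadjusted p under 0.05 in each. The number of all probe sets under that threshold, in either direction, differed widely between the fits. It ran from 240 of 21448 without empty vector replicate 2 to 1768 without *circAAGAB* replicate 1, and was 468 in the main fit. The adjusted p of *PMAIP1* was 0.586 or more. *BCL2L1* stayed between -0.35 and -0.20, *MCL1* between -0.32 and -0.08 and *BID* between 0.08 and 0.32. No member passed after adjustment under any alternative. With a mean-variance trend and with the methods' test, 1 member, *BCL2L1*, was lower at an unadjusted p under 0.05, against 0 in limma without a trend. Of all 21448 probe sets, in either direction, 474 were under it with the trend and 888 with the methods' test. The replicate block changed no call of a member; the unadjusted p of *PMAIP1* was 0.00163 in that paired fit.

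Members with small differences changed sign: with quantile normalization *BAK1* was at -0.0022 and *BCL2* at 0.0035, and without both arrays of replicate number 1 *BAX* was at 0.033. Leaving out 1 array at a time gave ranges of -0.12 to 0.17 for *BCL2L11*, -0.17 to 0.22 for *BAD*, -0.088 to 0.14 for *BAK1* and -0.25 to 0.16 for *BCL2*. Members without overlap were then 1 to 2 on the higher side (with *BID* in the second case) and 1 to 2 on the lower side (with *MCL1* or *BAX*), and 2 on the lower side without both arrays of replicate number 1; smaller groups part more easily. *AAGAB*, at 3.61, did not pass after adjustment with the methods' test (0.471). Of the relatives, partners and regulators, the count lower at an unadjusted p under 0.05 was 0 in limma, 2 with the block, with the trend and without both arrays of number 1, and 1 with quantile normalization, the filter on dim probe sets and the methods' test. It was 0 to 1 with 1 array left out. The number of all 21448 probe sets under that threshold, in either direction, also changed from 468 in the main fit. It was 1457 with the block, 474 with the trend and 1655 without both arrays of number 1. With quantile normalization it was 545, with the methods' test 888, and with the filter 318 of 14677. Why the counts of relatives, partners and regulators moved was not tested. Averaging several probe sets of a gene was not run, since each listed gene had 1.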
